A study of Mus musculus with 16 samples.

Results

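The 33 genes described here are the genes of the hypoxia-inducible factor (HIF) pathway and of the hypoxia response outside glycolysis. They were listed by name, with earlier results of these data known. All 33 were found among the 55414 gene IDs of the table, and all 33 passed the filter on low counts that left 18946 genes for testing. In 16 subcutaneous tumours, transcripts of many HIF-induced genes were lower after enzalutamide, after fasting and after both than in Vehicle tumours, while those of the HIF subunit genes Hif1a and Arnt did not pass the test in any comparison. Ero1l, an oxidase of the endoplasmic reticulum, averaged 33.3 ± 3.63 CPM (reads of a gene per library total, on a TMM-scaled basis) in ADF+ENZ, 41.0 ± 7.15 in ADF, 40.2 ± 8.71 in ENZ and 118 ± 29.8 in Vehicle tumours (SD, n = 4 each).

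The tumours were grown from B6MyC-CaP cells, a prostate cancer line obtained from Hi-MYC transgenic mice carried on a C57BL/6 background, and all groups share this 1 line. In Hi-MYC mice a probasin promoter, which androgens activate, drives human MYC in the prostate. Cells were implanted under the skin of male C57BL/6 mice aged 6 weeks. The 4 groups hold 4 tumours each. ADF+ENZ mice had alternate-day fasting, in which 24 h without food were followed by 24 h with free access to it, together with 20 mg/kg enzalutamide by gavage each day. ADF mice had the fasting schedule without the drug. ENZ mice had the drug at the same dose and ate normal chow freely, and Vehicle mice ate freely and received no enzalutamide. Enzalutamide is an androgen receptor antagonist used in prostate cancer. The sources used here do not give the day of the fasting cycle on which a tumour was taken, or state that each tumour came from its own mouse, so the p-values reflect only the spread among these samples, which may be technical.

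HIF is a transcription factor made of an oxygen-regulated alpha subunit, encoded by Hif1a or Epas1, and a stable partner encoded by Arnt. When oxygen is present, the prolyl hydroxylases encoded by Egln1, Egln2 and Egln3 mark the alpha subunit, the VHL protein binds the marked subunit, and it is destroyed; the asparagine hydroxylase encoded by Hif1an blocks the activity of what remains. When oxygen is scarce the alpha subunit accumulates and binds HIF response elements beside its target genes, which act in glucose use, mitophagy, collagen maturation, pH control and vessel growth. This control acts on the protein, and counts of transcripts do not measure it.

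Gene counts per library totalled between 10072489 and 25505655. Reads in no annotated feature were 24.0% ± 2.05 of reads in ADF+ENZ, 32.9% ± 2.73 in ADF, 25.9% ± 1.45 in ENZ and 25.9% ± 2.25 in Vehicle libraries (SD, n = 4 each). The ADF libraries, at 30.3% to 36.7%, all lay above the Vehicle libraries, at 23.4% to 27.9%. Reads marked as not uniquely aligned were 4.10% to 5.03% in ADF and 7.16% to 7.84% in Vehicle libraries. Reads marked as ambiguous were 2.71% to 3.02% in ADF and 3.76% to 4.44% in Vehicle libraries. Fasting without the drug and these properties of the libraries cannot be told apart. In a principal component analysis of the 1000 most variable genes, whose first component holds 29.3% of their variance, ADF+ENZ replicate 3 scored 27.8, and the other 15 libraries scored -18.8 to 14.5. The samples are bulk tumour RNA, in which fewer cells of a type and less RNA per cell cannot be told apart. Of the prostate epithelial markers, Pbsn had no count in any library, while the summed level of 9 markers, Pbsn among them, was 947 to 1484 in ADF+ENZ, 1058 to 1241 in ADF, 896 to 1136 in ENZ and 1162 to 1541 in Vehicle (CPM, range over 4 libraries). Of the 6 that were tested, Fkbp5, an androgen receptor target, was the only one called. It averaged 355 CPM in ADF+ENZ, 242 in ADF, 170.3 in ENZ and 400.3 in Vehicle, part of the sum above. Its log2 difference was -0.73 (SE 0.200, adjusted p = 0.0346) in ADF and -1.23 (SE 0.202, adjusted p = 0.00240) in ENZ against Vehicle, 1.06 (SE 0.201, adjusted p = 0.0240) in ADF+ENZ against ENZ and 1.79 (SE 0.283, adjusted p = 0.00787) for the interaction of fasting and drug. With the share of no-feature reads added to the fit, 0 of all genes were called for the interaction.

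Promoter windows were read to show the sequence context of the genes the results turn on. HIF binds the core ACGTG or GCGTG. In RefSeq windows from 250 bases before to 50 after a transcription start (assembly GRCm38.p6), 28 of the 33 members had a window, and 24 of these 28 genes (85.7%) held at least 1 core on either strand, against 46.7% of all 27025 genes in the table. The members' windows were richer in G and C, with a median of 64.3% against 52.7%, and the part of base composition in this difference was not tested. Epas1, Plod2, Bnip3l, Kdm4b and Zfp395 were not matched, and the windows of Vhl, Hif1an, Car12 and Vldlr held no core. A match of 5 letters is a description of the sequence and not a binding site. Ero1l (ENSMUSG00000021831), P4ha2 (ENSMUSG00000018906), Bnip3 (ENSMUSG00000078566) and Egln3 (ENSMUSG00000035105) are shown because their transcripts were lower in each treated group. Wsb1 (ENSMUSG00000017677) and Egln2 (ENSMUSG00000058709) are shown beside them because they were called in none of the comparisons and hold cores as well. Capitals mark each ACGTG or GCGTG, or its reverse complement CACGT or CACGC.
Ero1l, chr14:45318523-45318822, minus strand: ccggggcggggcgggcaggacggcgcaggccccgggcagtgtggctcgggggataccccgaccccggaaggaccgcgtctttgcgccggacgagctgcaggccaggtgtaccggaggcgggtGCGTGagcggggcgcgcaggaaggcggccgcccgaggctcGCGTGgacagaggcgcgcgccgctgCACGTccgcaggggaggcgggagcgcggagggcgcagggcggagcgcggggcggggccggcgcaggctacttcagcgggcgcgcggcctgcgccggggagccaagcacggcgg
P4ha2, chr11:54100674-54100973, plus strand: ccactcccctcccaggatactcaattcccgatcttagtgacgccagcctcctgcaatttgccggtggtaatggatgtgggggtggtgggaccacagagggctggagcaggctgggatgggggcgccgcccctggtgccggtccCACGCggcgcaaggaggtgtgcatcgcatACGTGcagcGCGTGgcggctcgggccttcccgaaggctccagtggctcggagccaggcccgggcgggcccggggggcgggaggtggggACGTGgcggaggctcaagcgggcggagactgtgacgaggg
Bnip3, chr7:138909457-138909756, minus strand: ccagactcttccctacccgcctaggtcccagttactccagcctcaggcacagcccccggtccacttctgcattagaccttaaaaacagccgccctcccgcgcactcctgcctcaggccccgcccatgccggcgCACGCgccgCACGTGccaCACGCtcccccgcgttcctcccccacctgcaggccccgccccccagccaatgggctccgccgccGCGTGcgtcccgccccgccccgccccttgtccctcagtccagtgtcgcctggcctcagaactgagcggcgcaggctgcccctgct
Egln3, chr12:54203825-54204124, minus strand: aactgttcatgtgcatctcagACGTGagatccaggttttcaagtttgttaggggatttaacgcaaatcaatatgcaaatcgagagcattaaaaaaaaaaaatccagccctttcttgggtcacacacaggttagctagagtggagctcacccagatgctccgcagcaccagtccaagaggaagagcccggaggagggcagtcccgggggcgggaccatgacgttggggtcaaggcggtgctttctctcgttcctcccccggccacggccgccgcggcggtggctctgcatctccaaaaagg
Wsb1, chr11:79254646-79254945, minus strand: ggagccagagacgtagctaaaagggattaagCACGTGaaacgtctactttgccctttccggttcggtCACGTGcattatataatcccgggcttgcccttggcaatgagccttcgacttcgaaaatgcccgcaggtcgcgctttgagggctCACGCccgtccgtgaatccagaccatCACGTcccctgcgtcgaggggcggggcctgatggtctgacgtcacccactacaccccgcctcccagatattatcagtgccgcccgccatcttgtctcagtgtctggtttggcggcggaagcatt
Egln2, chr7:27166753-27167052, minus strand: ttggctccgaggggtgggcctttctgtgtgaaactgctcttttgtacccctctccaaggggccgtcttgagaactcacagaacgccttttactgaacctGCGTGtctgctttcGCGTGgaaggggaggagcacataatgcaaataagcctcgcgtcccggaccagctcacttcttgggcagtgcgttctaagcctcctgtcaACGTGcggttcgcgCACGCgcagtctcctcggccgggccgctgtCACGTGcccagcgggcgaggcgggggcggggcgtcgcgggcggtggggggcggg

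The Ero1l window held an ACGTG on the minus strand at position -63 from the start and a GCGTG at -128 and at -88, and the P4ha2 window held 4 cores, of which the nearest to the start was at 11. The Bnip3 window held the palindrome CACGTG, which counts once on each strand, and 3 GCGTG cores, while Egln3 held a single ACGTG at -229. Wsb1 and Egln2 held 6 cores each, and both windows also held CACGTG, again counted once on each strand. Among all 32851 windows, 20.6% held 2 or more cores, against 59.5% of the members' 37 windows. Windows of the same gene can overlap and share cores, as some of Ak4 do, and a single CACGTG counts as 2 cores. Of the 21 members called lower in at least 1 comparison with Vehicle, 15 of 17 with a window held a core, and of the 12 called in none, 9 of 11 did. The shown windows were chosen after the values were seen; the lower gene Fam162a also held 6 cores, and a second RefSeq window of Wsb1 held none.

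Against Vehicle, the members that passed the test were all lower. With ENZ, 12 of 33 members fell, with a median log2 difference of -0.49 over all 33, against 0.014 over all genes tested, of which 3.62% were called lower. With ADF, 17 fell and the median was -0.66, against 0.0088 and 4.96% lower for all genes. With ADF+ENZ, 19 fell and the median was -0.51, against a median of 0.000125 and 6.53% lower for all genes. A gene was called at an adjusted p under 0.05, by edgeR's quasi-likelihood test with Benjamini-Hochberg adjustment over all 18946 genes. Differences were below 0 for 30 members in ADF+ENZ, 30 in ADF and 29 in ENZ. All 4 treated libraries lay below all 4 Vehicle libraries for 18 members in ADF+ENZ, 16 in ADF and 11 in ENZ, against 8.67%, 8.55% and 6.54% of all genes. The 3 comparisons use the same 4 Vehicle libraries. The members were chosen with earlier results of these data known, so the counts beside the shares of all genes are a description.

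These counts depended on single libraries and, in ADF, on whether the share of no-feature reads was in the fit. In ENZ against Vehicle, 4 members were called without Vehicle replicate 3 or without ENZ replicate 3, and 5 without ENZ replicate 4. With the percentage of no-feature reads as a covariate, 11 members were called in ENZ and 18 in ADF+ENZ. In ADF none of the 33 was called under that covariate, where the smallest adjusted p was 0.111, and 28 were below 0 with a median of -0.49. An unadjusted p under 0.05 was found for 16, and the share of all genes at that threshold was not counted. That covariate left 6 of all 18946 genes called in ADF against Vehicle, in place of 1707. No ADF call against Vehicle named in the text was kept under it. As the ADF and Vehicle shares do not overlap, the covariate also widened standard errors in ADF, to 0.315 for Ero1l and 0.212 for P4ha2. The loss of calls therefore cannot separate fasting from this property of the libraries.

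**Figure D1:**
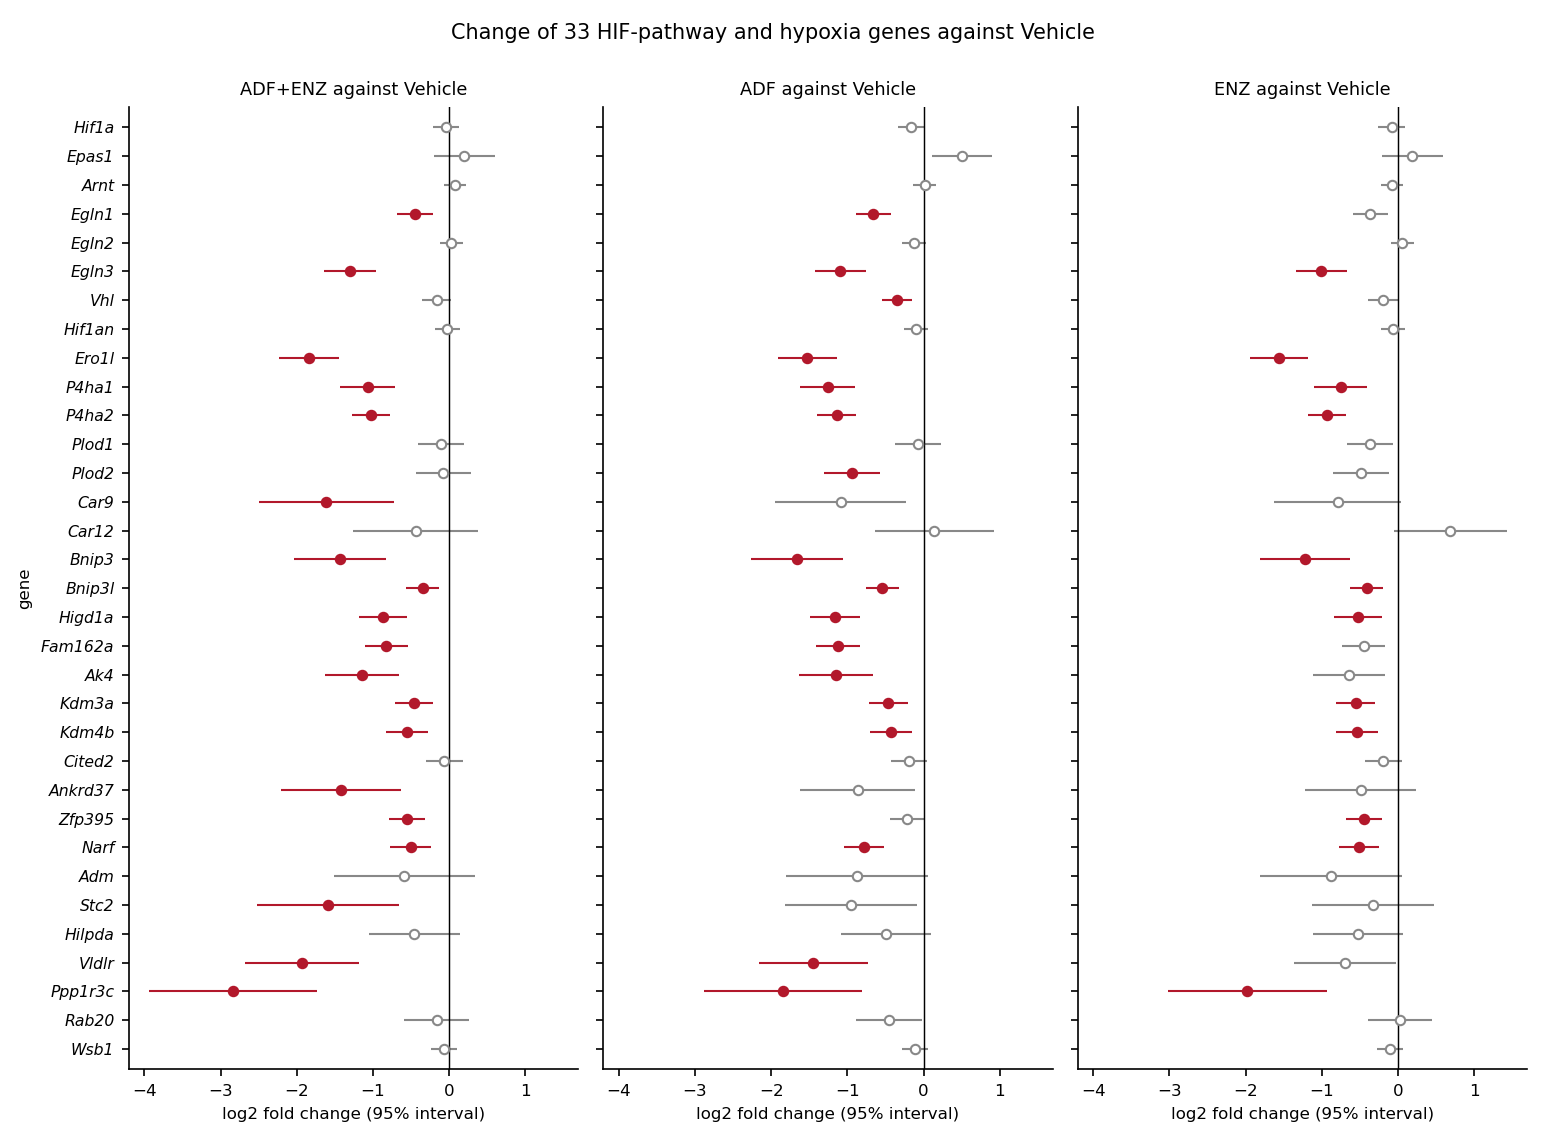
Log2 differences of the 33 genes (rows, in the order of their roles) in ADF+ENZ, ADF and ENZ tumours against Vehicle tumours, with 95% intervals from the edgeR fit (4 libraries a group). Filled red points passed an adjusted p under 0.05 (19, 17 and 12 genes), all of them below 0, and open grey points did not.

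Among the 8 HIF subunits, hydroxylases and VHL, 2 members fell in ADF+ENZ, 3 in ADF and 1 in ENZ, and those called in ADF+ENZ were Egln1 and Egln3. Hif1a, the alpha subunit best known for acute hypoxia, was at 203, 186, 193 and 201 CPM in ADF+ENZ tumours, 159, 201, 197 and 162 in ADF, 174, 197, 199 and 192 in ENZ and 202, 210.0, 204 and 191 in Vehicle. The groups overlapped in each comparison with Vehicle. The log2 differences of Hif1a were -0.043 (95% interval -0.22 to 0.13) in ADF+ENZ, -0.17 (-0.34 to 0.0061) in ADF and -0.085 (-0.26 to 0.088) in ENZ, and none was called. Arnt, the shared partner subunit, was at 129 to 142 CPM in ADF+ENZ, 124 to 139 in ADF, 113 to 124 in ENZ and 118 to 139 in Vehicle, and each treated range overlapped that of Vehicle. Its log2 differences from Vehicle, of 0.077, 0.013 and -0.083, were not called. Reads of Hif1a share 330 exon bases with an antisense gene, Gm15283, whose count over all libraries was 894 against 48580 for Hif1a; the sources used here do not say whether counting used strand.

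Epas1 encodes the other main alpha subunit, which is prominent in endothelium. It was at 69.4, 71.1, 42.9 and 86.6 CPM in ADF+ENZ tumours, 99.3, 81.1, 69.8 and 85.4 in ADF, 61.4, 89.3, 59.5 and 59.2 in ENZ and 70.6, 49.8, 61.3 and 55.0 in Vehicle. The ADF libraries but 1 lay above all Vehicle libraries, and the log2 difference in ADF against Vehicle, 0.50 (SE 0.188), had an unadjusted p of 0.0169 and an adjusted p of 0.102, so it was not called. The summed CPM of 10 endothelial markers was 494, 433, 325 and 668 in ADF+ENZ, 668, 497, 490.1 and 522 in ADF, 553, 787, 492 and 387 in ENZ and 664, 405, 651 and 450.1 in Vehicle tumours. In all 4 groups the library with the most Epas1 also had the highest endothelial sum, and the library with the least Epas1 had the lowest. Of the 10 endothelial markers, Tek and Emcn were called higher in ENZ against Vehicle, and none was called in the other comparisons. The part of endothelial content in the Epas1 values was not tested.

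Egln3, the prolyl hydroxylase gene most strongly induced by HIF itself, had the largest log2 differences of these 8 genes. It was at 96.97, 105, 124 and 79.6 CPM in ADF+ENZ tumours, 117, 119, 146 and 85.5 in ADF, 127, 129, 117 and 123 in ENZ and 261, 225, 311 and 200.3 in Vehicle. Every treated library was below every Vehicle library. The log2 difference was -1.30 (SE 0.159, adjusted p = 0.000136) in ADF+ENZ, -1.09 (SE 0.158, adjusted p = 0.000907) in ADF and -1.01 (SE 0.158, adjusted p = 0.00129) in ENZ. In ADF with the covariate it was -0.75. Per kilobase of exon, Egln3 had the highest level of all 33 genes in every group, at 38.1 ± 6.95 CPM per kb in ADF+ENZ, 43.9 ± 9.27 in ADF, 46.6 ± 2.01 in ENZ and 93.7 ± 18.1 in Vehicle.

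Egln1 encodes the prolyl hydroxylase that sets HIF levels in most cells and is itself a HIF target. It was at 55.5, 52.8, 67.4 and 54.5 CPM in ADF+ENZ tumours, 43.5, 50.5, 58.7 and 46.3 in ADF, 64.4, 62.0, 60.6 and 57.0 in ENZ and 79.3, 78.5, 92.9 and 63.3 in Vehicle. The ADF libraries lay below all Vehicle libraries, and those of ADF+ENZ and ENZ reached into the Vehicle range. Egln1 fell in ADF by a log2 difference of -0.66 (SE 0.113, adjusted p = 0.00205) and in ADF+ENZ by -0.45 (SE 0.112, adjusted p = 0.0139), and the ENZ value of -0.36 (SE 0.112, adjusted p = 0.0646) was not called. The ADF+ENZ call of Egln1 did not hold without Vehicle replicate 3 (adjusted p = 0.0566). Egln2, which encodes the remaining prolyl hydroxylase, was at 55.1 to 57.1 CPM in ADF+ENZ, 46.5 to 52.2 in ADF, 53.2 to 60.2 in ENZ and 50.3 to 59.6 in Vehicle, with no call.

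Vhl, which encodes the recognition subunit of the ubiquitin ligase that removes HIF, was at 29.0, 28.8, 33.6 and 30.5 CPM in ADF+ENZ tumours, 26.9, 25.0, 29.1 and 26.02 in ADF, 31.5, 29.4, 27.2 and 30.9 in ENZ and 29.2, 36.1, 37.6 and 33.4 in Vehicle. It fell in ADF, with a log2 difference of -0.35 (SE 0.0926, adjusted p = 0.0252), where all 4 libraries were below all Vehicle libraries, and was not called in ADF+ENZ (-0.16) or ENZ (-0.20). The ADF call of Vhl was lost without ADF replicate 2 or 4 or Vehicle replicate 2 or 3 (adjusted p = 0.0651 to 0.0841) and also with only the groups compared (adjusted p = 0.0535). Hif1an, the asparagine hydroxylase, was at 60.2 to 70.9 CPM in ADF+ENZ, 58.7 to 66.9 in ADF, 60.6 to 66.2 in ENZ and 61.8 to 70.5 in Vehicle, with log2 differences between -0.095 and -0.023 and no call.

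**Figure D2:**
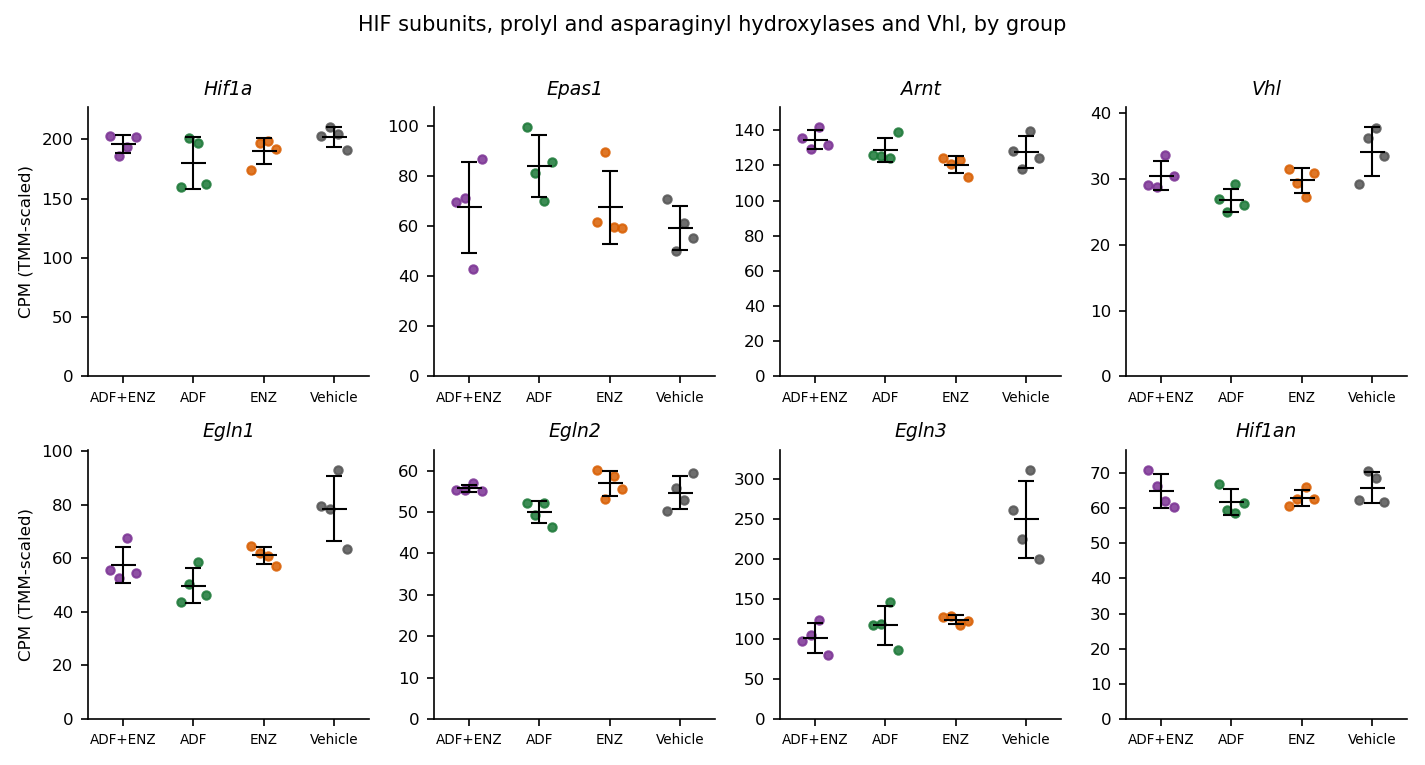
CPM (TMM-scaled, linear axis from 0) of the 8 HIF subunits, prolyl and asparagine hydroxylases and Vhl in each library by group, with the mean and SD of 4 libraries. Egln3 is below the Vehicle range in all 12 treated libraries, and for Hif1a, Arnt, Egln2 and Hif1an the points of each treated group overlap those of Vehicle.

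The collagen hydroxylases and the endoplasmic reticulum oxidase gave calls for 3 of 5 members in ADF+ENZ, 4 in ADF and 3 in ENZ, all lower. Ero1l re-oxidizes the protein disulfide isomerases that form disulfide bonds in secreted proteins. It was at 36.8, 32.5, 35.3 and 28.5 CPM in ADF+ENZ tumours, 38.1, 43.7, 49.4 and 32.8 in ADF, 45.7, 48.5, 37.4 and 29.2 in ENZ and 117, 108, 159.5 and 88.9 in Vehicle. The lowest Vehicle library was above the highest treated library. Its log2 difference was -1.84 (SE 0.185, adjusted p = 2.84e-05) in ADF+ENZ, -1.53 (SE 0.183, adjusted p = 0.000272) in ADF and -1.56 (SE 0.183, adjusted p = 0.000163) in ENZ, which is 3.57-fold, 2.88-fold and 2.95-fold lower. In ADF it was -1.32 with the covariate.

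P4ha1 and P4ha2 encode the catalytic subunits of the prolyl hydroxylase that stabilizes the collagen triple helix. P4ha1 was at 74.3, 74.3, 84.8 and 61.9 CPM in ADF+ENZ tumours, 53.1, 64.1, 76.4 and 64.9 in ADF, 102, 97.5, 95.8 and 72.4 in ENZ and 144, 133, 219 and 122 in Vehicle. P4ha2 was at 55.9, 46.8, 57.6 and 53.3 CPM in ADF+ENZ tumours, 38.6, 48.0, 58.6 and 51.8 in ADF, 55.7, 57.8, 61.6 and 53.1 in ENZ and 102, 112, 131 and 89.1 in Vehicle. For both genes all treated libraries lay below all Vehicle libraries. P4ha1 fell, with a log2 difference of -1.07 (SE 0.168, adjusted p = 0.00107) in ADF+ENZ, -1.26 (SE 0.169, adjusted p = 0.000625) in ADF and -0.75 (SE 0.166, adjusted p = 0.0149) in ENZ. P4ha2 fell, with a log2 difference of -1.03 (SE 0.121, adjusted p = 4.53e-05) in ADF+ENZ, -1.14 (SE 0.121, adjusted p = 8.11e-05) in ADF and -0.93 (SE 0.120, adjusted p = 0.000173) in ENZ. The ENZ call of P4ha1 was lost when only the ENZ and Vehicle libraries were fitted (adjusted p = 0.0601).

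Plod2, the lysyl hydroxylase that acts on collagen telopeptides, differed from the prolyl hydroxylases in its pattern over the groups. It was at 90.7, 75.3, 122 and 89.4 CPM in ADF+ENZ tumours, 37.6, 60.2, 65.9 and 43.4 in ADF, 59.2, 83.1, 73.8 and 67.3 in ENZ and 94.4, 117, 97.4 and 88.6 in Vehicle. The ADF+ENZ libraries overlapped the Vehicle libraries, and the ADF and ENZ libraries were all below them. Plod2 fell in ADF, with a log2 difference of -0.94 (SE 0.174, adjusted p = 0.00478); the ENZ value, -0.49 (SE 0.172, adjusted p = 0.114), and the ADF+ENZ value, -0.078 (SE 0.172, adjusted p = 0.809), were not called. In ADF it was -0.46 with the covariate. A transcript model on the other strand, Gm38391, shares 346 exon bases with Plod2 and had 631 counts in all against 19944. Plod1, which hydroxylates lysines within the helix, was at 192 to 256 CPM in ADF+ENZ, 194 to 266 in ADF, 151 to 211 in ENZ and 181 to 286 in Vehicle, and its log2 differences of -0.11, -0.073 and -0.37 were not called.

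All 5 mitochondrial genes were lower in ADF+ENZ and in ADF, and 3 of 5 were lower in ENZ. Bnip3 and Bnip3l encode mitophagy receptors of the outer membrane. Bnip3 was at 20.5, 23.5, 22.0 and 13.7 CPM in ADF+ENZ tumours, 14.9, 18.2, 21.3 and 13.2 in ADF, 29.7, 28.0, 19.8 and 14.9 in ENZ and 52.6, 46.2, 81.0 and 34.1 in Vehicle, with all treated libraries below all Vehicle libraries. Its log2 difference was -1.43 (SE 0.279, adjusted p = 0.00541) in ADF+ENZ, -1.66 (SE 0.282, adjusted p = 0.00376) in ADF and -1.22 (SE 0.276, adjusted p = 0.0201) in ENZ, and with the covariate -1.53 in ADF. The ENZ call was lost without ENZ replicate 3 or 4 or Vehicle replicate 3 (adjusted p = 0.0570 to 0.0739) and also with only the groups compared (adjusted p = 0.0763). Vehicle replicate 3 held the highest Bnip3 value of the 16 libraries, and ENZ replicates 3 and 4 the lowest of their group.

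Bnip3l was at 91.3, 84.5, 86.3 and 77.1 CPM in ADF+ENZ tumours, 67.3, 85.5, 75.3 and 67.0 in ADF, 87.9, 84.97, 77.6 and 73.7 in ENZ and 92.7, 122, 120.2 and 96.3 in Vehicle. Its groups were again separate, with smaller log2 differences of -0.35 (SE 0.103, adjusted p = 0.0341) in ADF+ENZ, -0.55 (SE 0.103, adjusted p = 0.00399) in ADF and -0.41 (SE 0.103, adjusted p = 0.0242) in ENZ. The ADF+ENZ call was lost without ADF+ENZ replicate 2, 3 or 4 or Vehicle replicate 2 or 3 (adjusted p = 0.0608 to 0.113) and also in limma-voom or with only the groups compared (adjusted p = 0.0521 to 0.0542), and the ENZ call without ENZ replicate 3 or 4 or Vehicle replicate 2 or 3 (adjusted p = 0.0685 to 0.0968).

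Higd1a, a respiratory chain assembly factor induced by hypoxia, was at 15.7, 14.9, 13.3 and 13.3 CPM in ADF+ENZ tumours, 9.19, 11.5, 14.5 and 11.5 in ADF, 17.7, 22.5, 16.8 and 15.9 in ENZ and 27.3, 23.9, 33.1 and 20.3 in Vehicle. The ADF+ENZ and ADF libraries were all below the Vehicle libraries, while ENZ replicate 2 was above the lowest Vehicle library. Higd1a fell, with a log2 difference of -0.87 (SE 0.153, adjusted p = 0.00156) in ADF+ENZ, -1.16 (SE 0.155, adjusted p = 0.000314) in ADF and -0.52 (SE 0.151, adjusted p = 0.0488) in ENZ. The ENZ call of Higd1a was lost without ENZ replicate 1, 3 or 4 or Vehicle replicate 1, 2 or 3 (adjusted p = 0.0545 to 0.189) and also with only the groups compared or with the covariate (adjusted p = 0.0525 to 0.0854). An antisense gene, Gm47112, shares 683 exon bases with Higd1a and had 80 counts in all against 4462.

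Fam162a, which takes part in hypoxia-induced cell death, was at 20.1, 14.9, 15.8 and 15.1 CPM in ADF+ENZ tumours, 11.4, 14.3, 14.6 and 13.0 in ADF, 20.2, 23.5, 21.6 and 20.1 in ENZ and 28.9, 29.0, 36.7 and 21.9 in Vehicle. It fell, with a log2 difference of -0.82 (SE 0.138, adjusted p = 0.00112) in ADF+ENZ and -1.12 (SE 0.139, adjusted p = 0.000207) in ADF, where the groups did not overlap with Vehicle, and was not called in ENZ, -0.45 (SE 0.135, adjusted p = 0.0603). Wdr5b, on the other strand, shares 168 exon bases with it and had 1450 counts in all against 5106. Ak4, an adenylate kinase of the mitochondrial matrix, was at 10.5, 11.1, 11.1 and 7.35 CPM in ADF+ENZ tumours, 6.40, 11.6, 12.9 and 8.67 in ADF, 15.9, 15.6, 14.5 and 10.6 in ENZ and 23.3, 18.7, 30.7 and 15.4 in Vehicle. Ak4 fell, with a log2 difference of -1.15 (SE 0.230, adjusted p = 0.00453) in ADF+ENZ and -1.15 (SE 0.229, adjusted p = 0.00701) in ADF, and the ENZ value of -0.64 (SE 0.224, adjusted p = 0.104) was not called.

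Of the 6 chromatin and transcription regulators, 5 fell in ADF+ENZ, 3 in ADF and 4 in ENZ. Kdm3a and Kdm4b encode histone demethylases that need oxygen and are HIF targets. Kdm3a was at 93.3, 98.4, 94.99 and 88.7 CPM in ADF+ENZ tumours, 82.9, 84.0, 99.7 and 108 in ADF, 108, 90.9, 80.0 and 72.9 in ENZ and 122, 116, 159 and 120.4 in Vehicle. Kdm4b was at 62.4, 64.4, 65.3 and 62.7 CPM in ADF+ENZ tumours, 65.6, 60.9, 76.7 and 74.1 in ADF, 70.2, 69.1, 57.1 and 60.3 in ENZ and 91.5, 78.9, 128 and 75.1 in Vehicle. Vehicle replicate 3 was the highest library for both, and for Kdm4b in ADF the highest treated library passed the lowest Vehicle library. Kdm3a fell, with a log2 difference of -0.46 (SE 0.122, adjusted p = 0.0183) in ADF+ENZ, -0.46 (SE 0.122, adjusted p = 0.0245) in ADF and -0.56 (SE 0.122, adjusted p = 0.0117) in ENZ. Kdm4b fell, with a log2 difference of -0.55 (SE 0.131, adjusted p = 0.0115) in ADF+ENZ, -0.43 (SE 0.131, adjusted p = 0.0471) in ADF and -0.54 (SE 0.131, adjusted p = 0.0208) in ENZ. The ADF+ENZ call of Kdm3a was lost without Vehicle replicate 3 (adjusted p = 0.0757) and also with the covariate (adjusted p = 0.0530). Its ADF call was lost without ADF replicate 1 or 2 or Vehicle replicate 3 (adjusted p = 0.0626 to 0.0891) and also with protein-coding genes only (adjusted p = 0.0506), and its ENZ call without ENZ replicate 3 or Vehicle replicate 3 (adjusted p = 0.0517 to 0.0524). For Kdm4b, the ADF call was lost without ADF replicate 1, 2, 3 or 4 or Vehicle replicate 1 or 3 (adjusted p = 0.0567 to 0.164) and also in limma-voom, with only the groups compared, with protein-coding genes only or with the stricter filter (adjusted p = 0.0512 to 0.126), and the ENZ call without ENZ replicate 3 or 4 or Vehicle replicate 3 (adjusted p = 0.0658 to 0.0852) and also with only the groups compared (adjusted p = 0.0944).

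Narf, a nuclear prelamin A recognition factor, was at 46.6, 45.9, 42.0 and 44.7 CPM in ADF+ENZ tumours, 33.3, 34.8, 41.1 and 38.9 in ADF, 57.8, 41.5, 45.4 and 34.5 in ENZ and 52.7, 68.6, 72.0 and 61.5 in Vehicle. It fell, with a log2 difference of -0.51 (SE 0.127, adjusted p = 0.0142) in ADF+ENZ, -0.78 (SE 0.128, adjusted p = 0.00142) in ADF and -0.51 (SE 0.127, adjusted p = 0.0223) in ENZ. ENZ replicate 1 lay within the Vehicle range, and the ENZ call was lost without ENZ replicate 2, 3 or 4 or Vehicle replicate 2 or 3 (adjusted p = 0.0535 to 0.0872) and also with only the groups compared (adjusted p = 0.0846). Zfp395, a zinc finger protein, was at 36.0, 34.9, 46.9 and 37.8 CPM in ADF+ENZ tumours, 42.7, 51.1, 51.3 and 51.5 in ADF, 49.6, 40.9, 38.3 and 38.6 in ENZ and 49.9, 58.1, 65.7 and 54.2 in Vehicle. It fell, with a log2 difference of -0.55 (SE 0.112, adjusted p = 0.00415) in ADF+ENZ and -0.45 (SE 0.112, adjusted p = 0.0238) in ENZ, where the groups did not overlap with Vehicle, and the ADF value of -0.21 (SE 0.111, adjusted p = 0.232) was not called. The ENZ call of Zfp395 was lost without ENZ replicate 2, 3 or 4 or Vehicle replicate 3 (adjusted p = 0.0623 to 0.0992). Cited2, a HIF-induced inhibitor of HIF transactivation, was at 35.8 to 46.8 CPM in ADF+ENZ, 30.7 to 43.3 in ADF, 32.3 to 40.0 in ENZ and 35.2 to 45.3 in Vehicle, and its log2 differences of -0.066, -0.19 and -0.19 were not called.

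Ankrd37, an ankyrin repeat gene and known HIF target, had few reads, with 16, 18, 3 and 29 counts in ADF+ENZ, 12, 12, 28 and 33 in ADF, 30, 27, 37 and 34 in ENZ and 62, 42, 50 and 35 in Vehicle libraries. At TMM-scaled levels of 0.329 to 1.31 CPM in ADF+ENZ and 1.93 to 3.69 CPM in Vehicle it fell, with a log2 difference of -1.42 (SE 0.375, adjusted p = 0.0184), and it was not called in ADF (-0.86) or ENZ (-0.49). The call was lost without ADF+ENZ replicate 3 or Vehicle replicate 1 (adjusted p = 0.0513 to 0.0559). Ufsp2 and Lrp2bp, on the other strand, share 57 and 349 exon bases with Ankrd37 and had 5362 and 259 counts in all, against 468 for Ankrd37. How reads on the shared bases were assigned is not known, and the deposited counts hold a separate entry for ambiguous reads.

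Of the carbonic anhydrases, which convert carbon dioxide at the cell surface and buffer pH, Car9 fell in ADF+ENZ and Car12 was not called in any comparison. Car9, a widely used hypoxia marker, had 44, 51, 17 and 58 counts in ADF+ENZ, 51, 39, 96 and 33 in ADF, 64, 80, 77 and 100 in ENZ and 150, 84, 240 and 92 in Vehicle libraries. These are 1.86 to 3.59 CPM in ADF+ENZ, 2.31 to 7.56 in ADF, 4.15 to 5.73 in ENZ and 4.80 to 15.7 in Vehicle. Vehicle replicate 3 had the highest level, and Vehicle replicates 2 and 4 lay within the ENZ and ADF ranges. Car9 fell, with a log2 difference of -1.61 (SE 0.414, adjusted p = 0.0198) in ADF+ENZ, and the values of -1.09 (SE 0.402, adjusted p = 0.0977) in ADF and -0.79 (SE 0.392, adjusted p = 0.275) in ENZ were not called. The ADF+ENZ call was lost without ADF+ENZ replicate 3 or 4 or Vehicle replicate 3 (adjusted p = 0.0538 to 0.0679) and also without a filter (adjusted p = 0.0606). An antisense gene, Gm12454, shares 214 exon bases with Car9 and had 133 counts in all against 1276. Car12 had 7, 13, 3 and 13 counts in ADF+ENZ, 7, 13, 19 and 10 in ADF, 13, 11, 34 and 28 in ENZ and 18, 11, 10 and 15 in Vehicle libraries, and its log2 differences from Vehicle had wide 95% intervals, -1.26 to 0.38 in ADF+ENZ, -0.64 to 0.92 in ADF and -0.051 to 1.42 in ENZ.

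The 7 secreted, lipid, glycogen and trafficking genes gave 3 calls in ADF+ENZ, 2 in ADF and 1 in ENZ. Ppp1r3c, a scaffold that brings protein phosphatase to glycogen and promotes its synthesis, had the largest log2 difference of the 33 members in each comparison with Vehicle. It was at 2.04, 3.25, 1.86 and 3.96 CPM in ADF+ENZ tumours, 7.12, 1.95, 6.46 and 7.74 in ADF, 11.00, 5.53, 3.49 and 1.87 in ENZ and 20.7, 12.7, 26.1 and 23.3 in Vehicle. No treated library reached the lowest Vehicle library. Its log2 difference was -2.83 (SE 0.512, adjusted p = 0.00388) in ADF+ENZ, -1.84 (SE 0.481, adjusted p = 0.0314) in ADF and -1.98 (SE 0.484, adjusted p = 0.0316) in ENZ. Its spread within groups was wide, and the ADF call was lost without ADF replicate 1, 2, 3 or 4 or Vehicle replicate 3 or 4 (adjusted p = 0.0519 to 0.0811) and also without a filter (adjusted p = 0.0584) and the ENZ call without ENZ replicate 2, 3 or 4 or Vehicle replicate 1, 3 or 4 (adjusted p = 0.0518 to 0.109) and also without a filter or with only the groups compared (adjusted p = 0.0654 to 0.0808).

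Vldlr, a lipoprotein receptor, had 11, 11, 4 and 18 counts in ADF+ENZ, 5, 27, 16 and 9 in ADF, 27, 28, 20 and 33 in ENZ and 52, 37, 56 and 38 in Vehicle libraries, or 0.438 to 0.899 CPM in ADF+ENZ, 0.400 to 1.60 in ADF, 1.20 to 2.42 in ENZ and 2.10 to 3.67 in Vehicle. It fell, with a log2 difference of -1.93 (SE 0.358, adjusted p = 0.00231) in ADF+ENZ and -1.45 (SE 0.342, adjusted p = 0.0152) in ADF, and the ENZ value of -0.69 (SE 0.321, adjusted p = 0.232) was not called. The ADF call of Vldlr was lost without ADF replicate 4 or Vehicle replicate 3 (adjusted p = 0.0530 to 0.0595). Stc2, a secreted stanniocalcin, had few reads, with 5, 3, 4 and 6 counts in ADF+ENZ, 1, 12, 8 and 6 in ADF, 11, 9, 9 and 20 in ENZ and 18, 15, 19 and 10 in Vehicle libraries. Its ADF+ENZ difference of -1.59 (SE 0.447, adjusted p = 0.0253) was called, and the call was lost without ADF+ENZ replicate 2 or 4 or Vehicle replicate 1 or 3 (adjusted p = 0.0551 to 0.0771).

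The other 4 genes of this role were not called in any comparison with Vehicle, and their intervals were of unequal width. Adm, which encodes the vasodilator adrenomedullin, was at 14.9, 9.62, 15.9 and 9.21 CPM in ADF+ENZ tumours, 13.0, 9.83, 11.7 and 5.73 in ADF, 15.0, 14.3, 8.53 and 3.24 in ENZ and 25.6, 11.6, 24.9 and 11.9 in Vehicle. The Vehicle libraries formed a high pair, replicates 1 and 3, and a low pair, and the log2 differences were -0.59 (95% interval -1.51 to 0.33) in ADF+ENZ, -0.88 (-1.81 to 0.056) in ADF and -0.88 (-1.81 to 0.054) in ENZ. Hilpda, which inhibits lipolysis at lipid droplets, was at 10.6 to 15.7 CPM in ADF+ENZ, 9.32 to 15.6 in ADF, 11.3 to 16.1 in ENZ and 11.5 to 32.1 in Vehicle, with the highest values in Vehicle replicates 3 and 1 and log2 differences of -0.46, -0.50 and -0.52. Rab20, a small GTPase of endosomes, was at 8.55 to 14.5 CPM in ADF+ENZ, 5.88 to 11.6 in ADF, 9.84 to 14.4 in ENZ and 9.51 to 13.9 in Vehicle, and an RNA gene on the other strand, E230013L22Rik, shares 356 exon bases with it and had 470 counts in all against 2833. Wsb1, a ubiquitin ligase adaptor, was at 112 to 127 CPM in ADF+ENZ, 105 to 134 in ADF, 105 to 126 in ENZ and 119.6 to 135 in Vehicle, and its 95% intervals were narrow, at -0.25 to 0.096 in ADF+ENZ, -0.28 to 0.062 in ADF and -0.28 to 0.062 in ENZ.

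**Figure D3:**
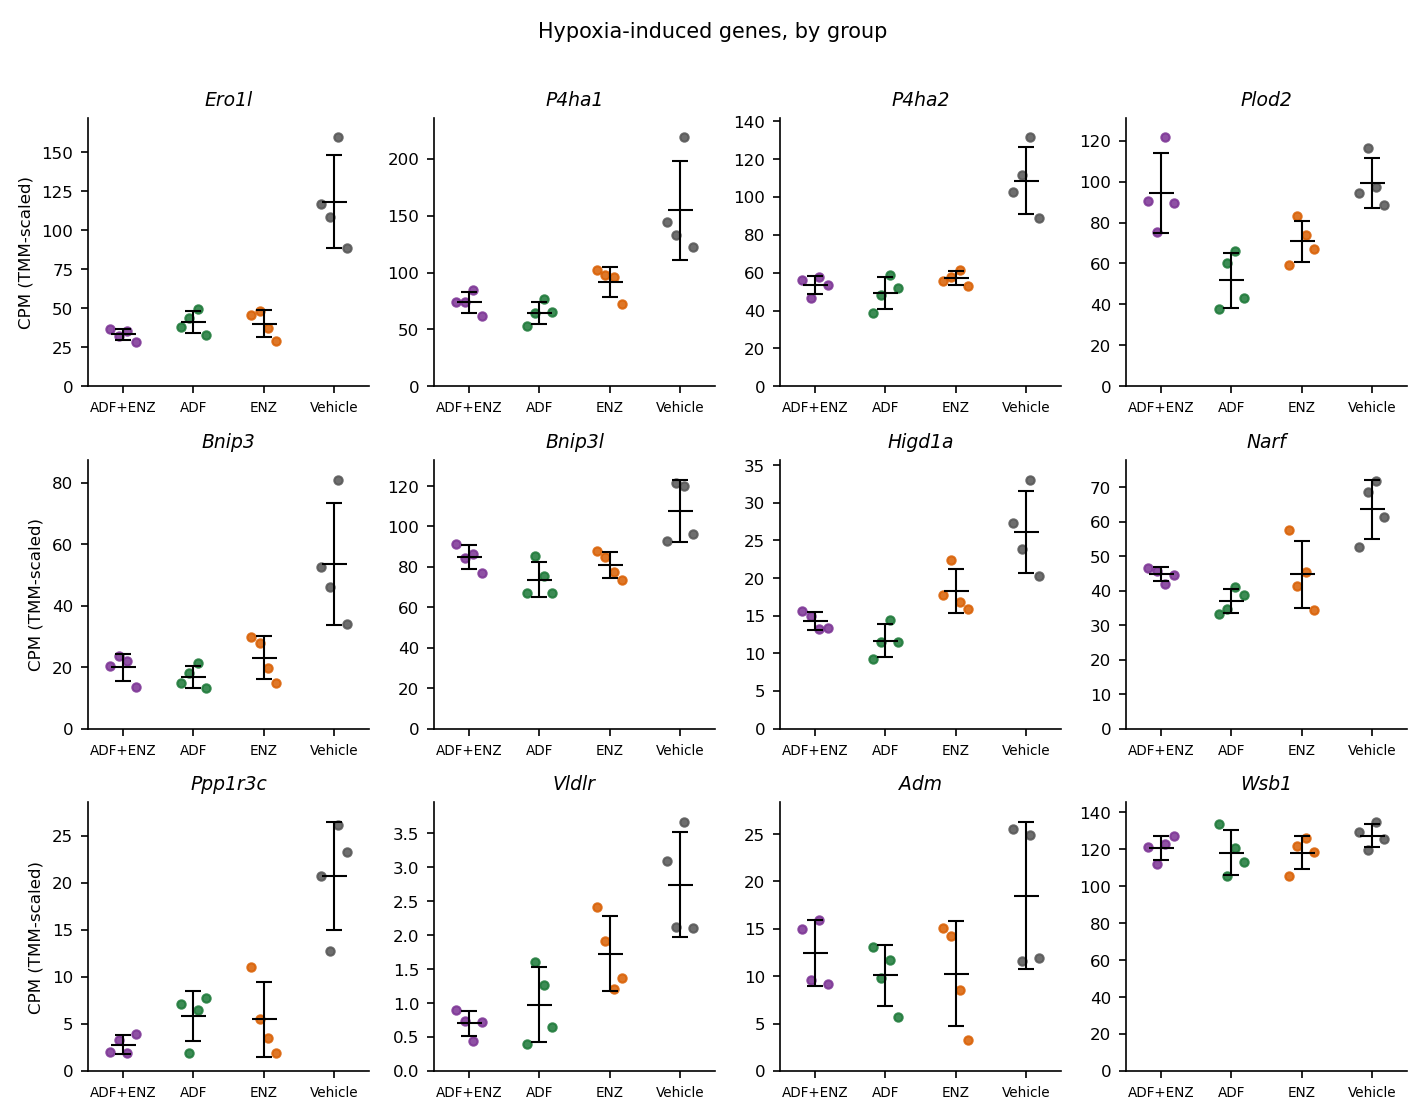
CPM (TMM-scaled, linear axis from 0) of 12 hypoxia-induced genes in each library by group, with the mean and SD of 4 libraries. Ero1l, P4ha1, P4ha2, Bnip3, Bnip3l and Ppp1r3c lie below the Vehicle range in all treated groups, Plod2 is at Vehicle levels in ADF+ENZ, and Adm and Wsb1 overlap across groups.

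Adding fasting to the drug did not give a call for any member. In ADF+ENZ against ENZ, 0 of 33 passed in edgeR, in DESeq2 and in limma-voom. The count at an unadjusted p under 0.05 was 9, and the share of all genes at that threshold was not counted. The smallest adjusted p was 0.110 and the median log2 difference was -0.087. At an adjusted p under 0.05, 1.09% of all genes were called. All ADF+ENZ libraries lay below all ENZ libraries for 6 members, Fam162a, Higd1a, Car9, Ankrd37, Stc2 and Vldlr, against 3.71% of all genes, and above them for Arnt, against 4.96%. Vldlr had -1.23 (SE 0.371, adjusted p = 0.110) and Fam162a -0.38 (SE 0.138, adjusted p = 0.190). For Ero1l the 95% interval was -0.66 to 0.12, and for P4ha2 -0.35 to 0.16.

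Adding the drug to fasting gave 2 calls in the 33 members, against 16.3% of all genes. Plod2 rose to the levels given above in ADF+ENZ, with a log2 difference from ADF of 0.86 (SE 0.175, adjusted p = 0.00640) and no overlap between the groups. Zfp395 fell, with a log2 difference of -0.34 (SE 0.113, adjusted p = 0.0450), with overlapping groups, and its call was lost without ADF+ENZ replicate 1, 2 or 4 or ADF replicate 2, 3 or 4 (adjusted p = 0.0879 to 0.122) and also with DESeq2 size factors or without a filter (adjusted p = 0.0511 to 0.0513). The median over the members was 0.065. All ADF+ENZ libraries lay above all ADF libraries for 4 members, Egln2, Plod2, Fam162a and Narf, against 10.6% of all genes. The percentages of reads in no feature of these groups do not overlap, and with the covariate neither gene was called (0 of 33, and 0 of all genes in place of 3081). The drug added to fasting and this property of the libraries cannot be told apart.

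The interaction asks whether fasting changed a gene by a different amount in drug-treated than in untreated tumours, as the log2 difference of ADF+ENZ from ENZ minus that of ADF from Vehicle. For 8 members it was higher than 0, for none lower, and the median over the 33 was 0.42; 2.18% of all genes were called higher. All 8 were lower in ADF than in Vehicle and differed less from ENZ in ADF+ENZ. The value was 1.25 (SE 0.258, adjusted p = 0.0223) for Ero1l, whose fasting difference was -0.27 with the drug and -1.53 without it. For P4ha2 it was 1.04 (SE 0.171, adjusted p = 0.00645), from -0.097 with the drug and -1.14 without it. For Plod2 it was 1.35 (SE 0.245, adjusted p = 0.0128), from 0.41 with the drug and -0.94 without it. P4ha1 had 0.94 (SE 0.237, adjusted p = 0.0426), Bnip3l 0.61 (SE 0.146, adjusted p = 0.0315), Higd1a 0.81 (SE 0.218, adjusted p = 0.0488), Fam162a 0.74 (SE 0.196, adjusted p = 0.0446) and Narf 0.79 (SE 0.180, adjusted p = 0.0279).

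By role, the interaction was called for 4 of 5 collagen and endoplasmic reticulum genes, 3 of 5 mitochondrial genes and 1 of 6 chromatin and transcription regulators. P4ha2 and Plod2 kept the call when any 1 of the 16 libraries was left out. The call of Ero1l was lost without ADF+ENZ replicate 3 or ADF replicate 4 (adjusted p = 0.0524 to 0.0547), that of Narf without ADF+ENZ replicate 1 or 3, ADF replicate 2 or 4, ENZ replicate 2 or Vehicle replicate 2 or 3 (adjusted p = 0.0514 to 0.0602) and that of Bnip3l without ADF+ENZ replicate 1 or 3, ADF replicate 3 or 4, ENZ replicate 3 or 4 or Vehicle replicate 2 or 3 (adjusted p = 0.0545 to 0.0771). P4ha1, Higd1a and Fam162a each lost it in at least 12 of 16 such fits, with adjusted p up to 0.0964 for P4ha1, 0.0974 for Higd1a and 0.0950 for Fam162a. With all libraries, these 3 also lost it with protein-coding genes only, P4ha1 without a filter, Higd1a and Fam162a in limma-voom, and Higd1a with the stricter filter (adjusted p = 0.0502 to 0.0810). The count over the 33 was 2 without ADF replicate 4 or ADF+ENZ replicate 3, 3 without Vehicle replicate 2, Vehicle replicate 3 or ADF+ENZ replicate 1, 4 without ENZ replicate 3, ENZ replicate 4 or ADF replicate 2, and 5 without ENZ replicate 2 or ADF replicate 1. With the covariate 0 members and 0 of all genes were called.

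**Figure D4:**
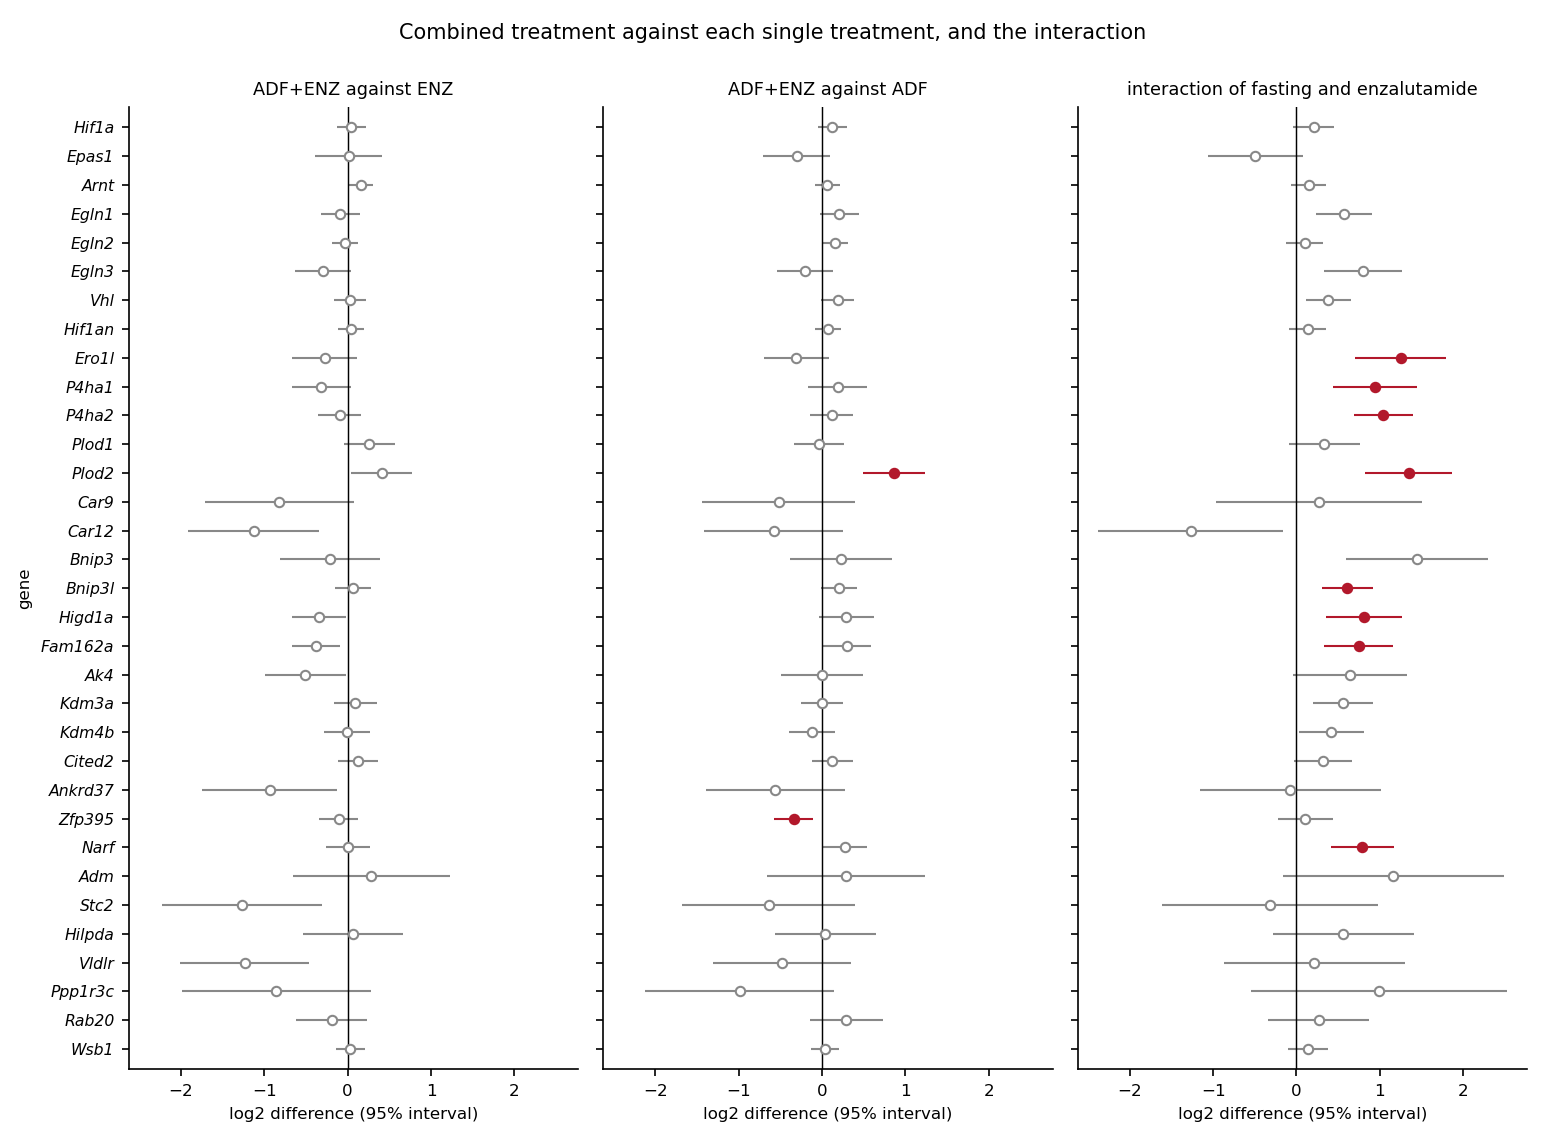
Log2 differences of the 33 genes (rows) in ADF+ENZ against ENZ, in ADF+ENZ against ADF and for the interaction of fasting and enzalutamide, with 95% intervals from the edgeR fit. Filled red points passed an adjusted p under 0.05: 0 genes against ENZ, 2 against ADF (Plod2 above 0 and Zfp395 below) and 8 for the interaction, all above 0.

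Within a group, the same libraries were high or low for many members. In Vehicle, replicate 3 was the highest of the 4 libraries for 23 of the 33 members and for 24.1% of all genes tested, and replicate 4 was the lowest for 17 members and for 22.4% of all genes. In ENZ, replicate 1 was the highest for 18 members, against 32.5% of all genes, and replicate 4 the lowest for 19, against 25.7%. In ADF, replicate 3 was the highest for 15 and replicate 1 the lowest for 14, against 20.3% and 29.4% of all genes. In ADF+ENZ, replicate 3 was the highest for 15 and replicate 4 the lowest for 12, against 30.3% and 21.2%. That replicate 3 was also the lowest of its group for 9 members, against 30.0% of all genes. Car9 ranged from 4.80 to 15.7 CPM and Hilpda from 11.5 to 32.1 CPM within Vehicle alone, while Hif1a stayed within 191 to 210.0 CPM there.

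**Figure D5:**
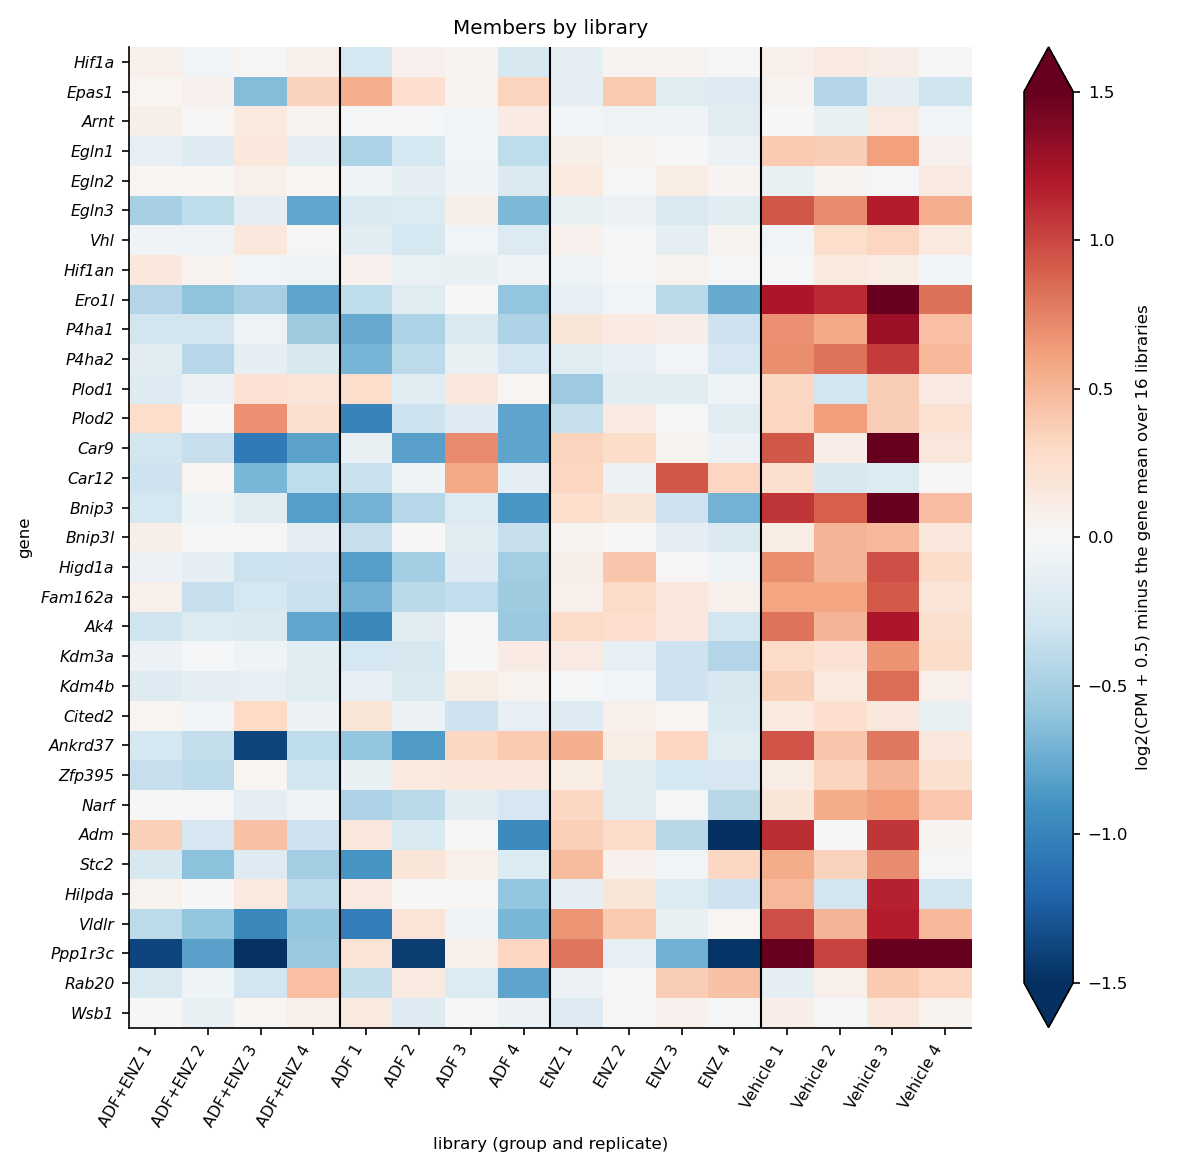
Heat map of log2(CPM + 0.5) minus the mean of each gene over the 16 libraries, with genes in rows by role and libraries in columns by group (ADF+ENZ, ADF, ENZ, Vehicle) and replicate; colours are capped at 1.5 in either direction. Most rows are high in the 4 Vehicle columns, most of all in replicate 3, and the rows of Hif1a, Arnt, Egln2, Hif1an and Wsb1 stay near 0.

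Levels were compared between genes per kilobase of exon. In Vehicle, Egln3 was followed by P4ha1 at 37.6 ± 10.6, Plod1 at 36.3 ± 6.96, Fam162a at 34.3 ± 7.10 and Hif1a at 34.2 ± 1.37 CPM per kb (SD, n = 4), 4 genes whose means differed by less than the SD of P4ha1. Ero1l was at 22.4 ± 5.63 and Bnip3 at 23.6 ± 8.78 CPM per kb there. In ADF+ENZ the order after Egln3 was Plod1 at 33.6 ± 4.73, Hif1a at 33.2 ± 1.31 and Wsb1 at 30.3 ± 1.63 CPM per kb, with Ero1l at 6.29 ± 0.688. The lowest levels in all groups were those of Vldlr, Stc2 and Car12, between 0.0622 and 0.272 CPM per kb.

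Genes of the same pathway outside the members were counted in 3 lists. Of 24 further HIF regulators tested, 3 were higher and 2 lower in ADF+ENZ against Vehicle (median 0.17), 0 higher and 1 lower in ADF (median -0.071), and 0 higher and 3 lower in ENZ (median -0.0054). Of all genes, 5.97% were called higher and 6.53% lower in ADF+ENZ, 4.05% and 4.96% in ADF, and 1.81% and 3.62% in ENZ. The lower genes were Os9, which binds HIF and its hydroxylases, and in ADF+ENZ and ENZ Arnt2, a partner subunit related to Arnt, and in ENZ Arntl, a clock factor of the same protein family. Os9 had log2 differences of -0.44 (SE 0.0868, adjusted p = 0.00353) in ADF+ENZ, -0.38 (SE 0.0867, adjusted p = 0.0138) in ADF and -0.53 (SE 0.0868, adjusted p = 0.00127) in ENZ. Its CPM averaged 133 ± 4.65 in ADF+ENZ, 139 ± 14.4 in ADF, 125 ± 10.2 in ENZ and 181 ± 15.97 in Vehicle (SD, n = 4). Arnt2 was at 0.954 ± 0.585 in ADF+ENZ, 1.92 ± 0.980 in ADF, 1.33 ± 0.704 in ENZ and 4.93 ± 1.47 in Vehicle CPM, with -2.23 (SE 0.453, adjusted p = 0.00509) in ADF+ENZ and -1.93 (SE 0.442, adjusted p = 0.0172) in ENZ. In ADF+ENZ against ADF, 5 of the 24 were higher, where 8.72% of all genes were. They included Rbx1, Cul2 and Elob, subunits of the ubiquitin ligase that holds VHL, with 0.51 (SE 0.108, adjusted p = 0.00669), 0.42 (SE 0.0974, adjusted p = 0.00997) and 0.51 (SE 0.122, adjusted p = 0.0108). The remaining genes of these 5 were Sdhb and Rack1. With the share of no-feature reads as a covariate, 0 of all genes were called in ADF+ENZ against ADF. Ep300, a HIF coactivator, was higher in ADF+ENZ against ENZ, the only call of the 24 there, 0.42 (SE 0.0841, adjusted p = 0.0229), and against Vehicle, 0.30 (SE 0.0839, adjusted p = 0.0266). The other genes higher in ADF+ENZ against Vehicle were Mtor, 0.52 (SE 0.137, adjusted p = 0.0187), and Sdhb, named after its value was seen.

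Of 35 other hypoxia-induced genes tested, 12 were lower and 1 higher in ADF+ENZ (median -0.44), 14 were lower in ADF (median -0.41) and 9 were lower in ENZ (median -0.35), against Vehicle; the shares of all genes are those just given. Among those with the smallest adjusted p were Ndrg1, a stress-induced growth regulator, with -0.84 (SE 0.149, adjusted p = 0.00218) in ADF+ENZ, -1.01 (SE 0.149, adjusted p = 0.000994) in ADF and -1.03 (SE 0.149, adjusted p = 0.000613) in ENZ, and Pgf, a vascular growth factor, with -1.79 (SE 0.271, adjusted p = 0.00125), -1.83 (SE 0.271, adjusted p = 0.00173) and -1.66 (SE 0.268, adjusted p = 0.00272) in the same order. Vegfa, the main HIF-induced vessel growth factor, was lower in ADF, -0.89 (SE 0.114, adjusted p = 0.000263), and higher in ADF+ENZ than in ADF, 0.64 (SE 0.114, adjusted p = 0.00284). The gene higher in ADF+ENZ was Kdm6b, a histone demethylase, named after its value was seen. For the interaction 11 of 35 were higher, against 2.18% of all genes. The values were 1.65 (SE 0.200, adjusted p = 0.000837) for the transcription factor Nfil3 and 1.20 (SE 0.210, adjusted p = 0.00900) for Ndrg1. With the no-feature covariate, 0 of all genes were called in ADF+ENZ against ADF or for the interaction.

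Of 18 glycolysis enzymes and transporters, of which Hk2 and Slc2a1 are also in the list before, 13 were lower in ADF+ENZ (median -0.62), 16 in ADF (median -0.93) and 10 in ENZ (median -0.54) against Vehicle, and none was higher. Of all genes, 6.53%, 4.96% and 3.62% were called lower in the same order. For the interaction 12 of 18 were higher, with a median of 0.76, against 2.18% of all genes called higher. With the no-feature covariate 0 of all genes were called for it. Against Vehicle, the aldolase gene Aldoc had -2.31 (SE 0.310, adjusted p = 0.000177) in ADF+ENZ, -2.43 (SE 0.315, adjusted p = 0.000272) in ADF and -1.61 (SE 0.289, adjusted p = 0.00272) in ENZ. Its levels were low, averaging 0.820 CPM in ADF+ENZ, 0.759 in ADF, 1.35 in ENZ and 4.10 in Vehicle. Its differences were larger than the medians of the list given above. In ADF+ENZ against ENZ none of the 18 was called in edgeR, and the median was -0.052.

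Markers of other cell types gave few calls. Macrophage sums were 1160.0 to 1563 in ADF+ENZ, 1308 to 1543 in ADF, 1213 to 1695 in ENZ and 1265 to 1740.0 in Vehicle (CPM over 9 genes). Of these genes, in ADF+ENZ against Vehicle Adgre1 was lower and Mertk higher, in ADF and in ENZ against Vehicle Cd68 was lower, in ADF+ENZ against ENZ Mertk was higher, and for the interaction Cd68 was higher. Fibroblast sums, over 7 genes, were 7809.7 to 9090.4 in ADF+ENZ, 6959 to 8825 in ADF, 6518 to 7346 in ENZ and 8056 to 8918 in Vehicle CPM. The ENZ range lay below the ADF+ENZ and Vehicle ranges. Dcn, Col1a1 and Col1a2 made up most of these sums, while group means were 2.64 to 3.19 CPM for Fap and 7.47 to 13.7 for Lum. Col1a1, Col1a2, Pdgfra and Dcn averaged lower in ENZ than in Vehicle, and Pdgfrb, Lum and Fap averaged higher. Which cells these transcripts came from was not tested. Of the fibroblast genes Dcn was lower in ADF, and Pdgfra was higher in ADF+ENZ, against Vehicle, and Pdgfra was also higher in ADF+ENZ against ENZ. Endothelial sums overlapped between all groups, at 325 to 668 in ADF+ENZ, 490.1 to 668 in ADF, 387 to 787 in ENZ and 405 to 664 in Vehicle CPM. Sums of neutrophil, T and NK cell, skeletal muscle, adipocyte, keratinocyte and red blood cell markers were at most 41.7 CPM in every library, and of these genes Lipe, in the adipocyte list, was called, higher in ADF against Vehicle and lower in ADF+ENZ against ADF. With the no-feature covariate, 0 of all genes were called in ADF+ENZ against ADF or for the interaction. The part of cell content in the members' differences was not tested.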

How the data were processed

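RNA was sequenced as paired ends from 16 tumours. The deposited table holds counts per gene, checked to be whole numbers, and HISAT2, Trim Galore, DESeq2 and featureCounts are named, without versions, in the submitters' processing notes, and the builds mm39 and GRCh38, without roles. It also holds 5 entries with the names htseq-count writes; these stayed out of library sizes and tests, and the share of reads in no feature was used as a property of the library. Symbols for 52133 of 55414 IDs came from a GRCm38 annotation, used for names, exon lengths and overlaps. IDs without a symbol held 3.48% of counts.

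Counts were tested by edgeR's quasi-likelihood test with robust fitting (edgeR 4.0.16 in R 4.3.3), in a single fit of the 16 libraries, after TMM scaling; filterByExpr (minimum count 10, minimum total 15) kept 18946 genes. There were 5 pairwise comparisons and the interaction, each adjusted by Benjamini-Hochberg over all genes tested. CPM are TMM-scaled, and CPM per kb divide them by exon length. Intervals are 95% intervals of the fit. Alternatives used DESeq2 1.42.0 and limma 3.58.1, other filters (none, 37369 genes; at least 1 CPM in 4 libraries, 17036 genes), only the groups compared, protein-coding genes only, the share of no-feature reads as a covariate, and each library left out.

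The 33 members, the pathway lists and the marker lists were chosen with earlier results of these data known. A prostate marker is not reported here. Named genes are all members and, of each pathway list, up to 4 genes per comparison with the smallest adjusted p among those called, not all of which are named here. The fit was tested on simulated counts. Replicate numbers follow the order of the samples and pair nothing. Promoters are from RefSeq on GRCm38.p6, an earlier build than mm39. Plots were made in Python 3.11.15 with matplotlib 3.10.9.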

Additional observations from a re-analysis of the deposited data

Results flagged for a closer look

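Of 132 groups of 4 libraries (33 genes in 4 groups), 6 held a library far from the other 3 of its group by Dixon's test, and chance gives about 1 in 20. Fam162a in ADF+ENZ replicate 1 was 20.1 CPM, against 14.9 to 15.8 in the other 3 libraries of the group. Ankrd37 in ADF+ENZ replicate 3 was 0.329 CPM, against 1.17 to 1.31 in the other 3 libraries of the group, the library that also stands apart on the first principal component. Arnt in ADF replicate 4 was 139 CPM, against 124 to 126 in the other 3 libraries of the group. Zfp395 in ADF replicate 1 was 42.7 CPM, against 51.1 to 51.5 in the other 3 libraries of the group. Epas1 in ENZ replicate 2 was 89.3 CPM, against 59.2 to 61.4 in the other 3 libraries of the group, and that library also had the highest endothelial sum of the 16. Kdm3a in Vehicle replicate 3 was 159 CPM, against 116 to 122 in the other 3 libraries of the group, the Vehicle library that was the highest of its group for 23 of 33 members.

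The fasting difference differed between drug-treated and untreated tumours for 8 members, by the interaction in edgeR's quasi-likelihood test with Benjamini-Hochberg adjustment. The difference of log2 differences was 1.25 for Ero1l (adjusted p = 0.0223), 0.94 for P4ha1 (adjusted p = 0.0426), 1.04 for P4ha2 (adjusted p = 0.00645), 1.35 for Plod2 (adjusted p = 0.0128), 0.61 for Bnip3l (adjusted p = 0.0315), 0.81 for Higd1a (adjusted p = 0.0488), 0.74 for Fam162a (adjusted p = 0.0446) and 0.79 for Narf (adjusted p = 0.0279). With the share of no-feature reads as a covariate none of the 8 was called.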

How the results depend on the processing

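No called direction of a member turned under any of the 8 alternatives or the 16 fits that left out 1 library. Members called numbered 14 to 19 in ADF+ENZ against Vehicle with 1 library left out (19 with all), 12 to 16 in ADF (17), 4 to 13 in ENZ (12), 1 to 2 in ADF+ENZ against ADF (2) and 2 to 11 for the interaction (8), and 0 in ADF+ENZ against ENZ in every setting. With only the groups compared, 7 were called in ENZ. With the share of no-feature reads as a covariate, 0 were called in ADF against Vehicle, 0 in ADF+ENZ against ADF and 0 for the interaction. In ADF+ENZ against ADF, 1 was called with DESeq2 size factors and 1 without a filter. With protein-coding genes alone 5 were called for the interaction. The cause of these differences was not tested.

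Counts over all genes that moved by more than 1.5 times were, in ENZ against Vehicle, 1577 in DESeq2 and 1680 in limma-voom (1028 in edgeR). In ADF against Vehicle they were 6 with the covariate and 1119 with protein-coding genes (1707), and in ADF+ENZ against Vehicle 1579 with the covariate (2369). In ADF+ENZ against ENZ they were 668 in DESeq2, 54 with only the groups compared and 43 with the covariate (206). In ADF+ENZ against ADF they were 0 with the covariate and 1917 with protein-coding genes (3081), and for the interaction 1377, in DESeq2, 0 with the covariate and 350 with protein-coding genes (587). Leaving out 1 library moved these counts by more than 1.5 times as follows. ADF+ENZ against Vehicle gave 1202 to 1548 without ADF+ENZ replicate 3 or Vehicle replicate 3 or 4. ADF against Vehicle gave 610 to 1055 without ADF replicate 3 or 4 or Vehicle replicate 2 or 3. ENZ against Vehicle gave 403 to 634 without ENZ replicate 2, 3 or 4 or Vehicle replicate 3. ADF+ENZ against ENZ gave 20 to 120 without ADF+ENZ replicate 1 or 3 or ENZ replicate 1, 2, 3 or 4 and 358 without ADF+ENZ replicate 2. ADF+ENZ against ADF gave 1197 to 1931 without ADF+ENZ replicate 1 or 3 or ADF replicate 3 or 4. The interaction gave 148 to 391 without ADF+ENZ replicate 1 or 3, ADF replicate 2, 3 or 4, ENZ replicate 2, 3 or 4 or Vehicle replicate 2 or 3 and 908 without ADF+ENZ replicate 2. No paired analysis was possible because the replicate numbers follow only the order of the samples. The fewest counts were those of Stc2, Vldlr, Car12 and Ankrd37, which had 3 counts or fewer, or 4 for Vldlr, in at least 1 library.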
